A study of Mus musculus with 16 samples.

Results

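The clustered histone genes of the mouse were followed across sorted cells of the olfactory mucosa. They are the genes whose older symbols begin with Hist1h to Hist4h, each read by the probe set with the highest mean over the 16 arrays. The platform annotation lists current symbols, so the genes were found through the older symbols of a RefSeq gene table, joined by Entrez gene ID. Of 70 such genes in that table, 57 had a listed probe set, among 19505 genes measured. Genes of cluster 1 on chromosome 13 made up 47 of them, and cluster 2 on chromosome 3 made up 8. The other two were H2bu2 (Hist3h2ba, cluster 3) on chromosome 11 and H4f16 (Hist4h4, cluster 4) on chromosome 6. By type there were 5 linker histone H1 genes, 13 H2A, 17 H2B, 10 H3 and 12 H4 genes. H2bc21, the older Hist2h2be, is kept apart from the other 56 genes.

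Core histones H2A, H2B, H3 and H4 form the spool around which DNA is wound, and H1 binds the DNA between spools. Most clustered genes are switched on in S phase, when newly copied DNA needs histones, and their mRNAs lack a poly(A) tail and end in a stem-loop bound by SLBP. Some clustered genes also make polyadenylated RNA in cells that no longer divide. In the olfactory mucosa, globose basal cells divide and give rise to new olfactory sensory neurons, which do not divide. Hist2h2be encodes an H2B variant of mature mouse olfactory neurons that is known to be lowered by neuronal activity.

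Libraries came from C57BL/6 mice carrying S100a5-tauGFP, a green fluorescent protein (GFP) reporter of S100a5, which neuronal activity induces. The 24 mice, of both sexes and 7 to 12 weeks old, stayed singly in clean air chambers for 40 h. From 26 h on, odor mice were exposed to isoamyl acetate and whiskey lactone, mixed, in pulses of 10 s every 20 min, and vehicle mice had filtered air in its place. Olfactory mucosa of 3 mice was pooled, dissociated and sorted into 2 fractions, and biotinylated cRNA made from 50 to 100 ng of total RNA was measured on Affymetrix arrays. The 4 groups were odor titled GFP+, odor titled GFP-, vehicle titled GFP+ and vehicle titled GFP-, with 4 libraries each. All groups carried the reporter, and libraries that share a treatment and a number are both fractions of 1 pool of mice. A reporter on S100a5 reads recent activity, but the fractions also differed in markers of several cell types, as given below. Fraction differences are therefore not a contrast of activity within like cells. Each library averages 3 animals.

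Titles and cell type tags named opposite fractions in all 16 samples, and groups follow the titles. S100a5 went against the titles: in the 7 pools other than vehicle pool 3 it was lower in the library titled GFP+ than in the library titled GFP- of the same pool. If the tags were right, each fraction difference below would have the opposite sign, and titled GFP+ and titled GFP- would trade places in comparisons of odor with vehicle. Vehicle pool 3 ran opposite to the others, with S100a5 at 16.37 in its library titled GFP+ and 14.99 in its library titled GFP-. Results are therefore given for all 16 arrays as titled and for the 14 arrays without both libraries of that pool. Values are on the deposited log2 scale, whose highest value of 19.4 exceeds the limit of 16 for a 16-bit scanner, so differences are not given as folds. The number of arrays limits the precision. "Passed" means a limma test with an adjusted p (Benjamini-Hochberg over all 19505 genes) under 0.05, and the sign of a difference is titled GFP+ minus titled GFP-, or odor minus vehicle.

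The promoters of 4 of these genes show how the family is built and are given because their genes behaved differently below: H2bc12 (H2B), H2ac10 (H2A) and H1f1 (H1) passed in both treatments, and H4c4 (H4) did not. Each line holds the 250 bases before the start of the gene, 5′ to 3′ on the gene's strand, from RefSeq on GRCm38.p6. The windows are chr13:22035571-22035820 for H2bc12, chr13:23533625-23533874 for H2ac10, chr13:23763418-23763667 for H1f1 and chr13:23581318-23581567 for H4c4, all on the plus strand. Capitals mark matches on either strand to ATTTGCAT (the octamer known from H2B promoters, bound by POU2F1), CCAAT (bound by NF-Y) and TATAAA (the TATA box).
H2bc12: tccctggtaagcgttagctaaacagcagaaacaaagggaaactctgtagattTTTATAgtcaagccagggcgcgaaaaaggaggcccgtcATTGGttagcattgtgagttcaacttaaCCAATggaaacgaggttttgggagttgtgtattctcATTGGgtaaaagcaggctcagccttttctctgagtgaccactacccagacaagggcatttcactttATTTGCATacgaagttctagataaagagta
H2ac10: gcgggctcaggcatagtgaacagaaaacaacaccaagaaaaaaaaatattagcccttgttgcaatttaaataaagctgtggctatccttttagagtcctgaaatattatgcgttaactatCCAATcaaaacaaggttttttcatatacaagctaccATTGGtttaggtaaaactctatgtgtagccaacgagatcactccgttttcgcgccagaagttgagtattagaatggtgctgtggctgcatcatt
H1f1: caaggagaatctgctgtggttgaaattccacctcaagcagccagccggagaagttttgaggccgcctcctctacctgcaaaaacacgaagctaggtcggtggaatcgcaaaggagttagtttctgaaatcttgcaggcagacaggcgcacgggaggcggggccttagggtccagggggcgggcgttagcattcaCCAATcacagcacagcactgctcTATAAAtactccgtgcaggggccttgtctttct
H4c4: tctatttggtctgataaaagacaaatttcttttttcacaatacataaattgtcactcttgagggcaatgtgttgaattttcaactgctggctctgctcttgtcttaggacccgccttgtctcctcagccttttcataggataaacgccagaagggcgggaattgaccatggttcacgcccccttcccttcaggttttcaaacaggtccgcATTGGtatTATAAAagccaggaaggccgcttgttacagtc

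H2bc12 held 1 octamer, 3 CCAAT matches and 1 TATAAA match, while H2ac10 held 2 CCAAT matches and no other. H1f1 held 1 CCAAT and 1 TATAAA match close to the start, and so did H4c4. Windows were found for 52 of the 57 genes (not for H3c7, H2bc4, H3c1, H2bc21 and H4c14), and no matches to different motifs overlapped in them. CCAAT was present in 80.8% of the windows, ATTTGCAT in 23.1% and TATAAA in 48.1%, against 33.8%, 1.6% and 12.4% of all 32851 promoter windows in the table. The octamer lay in 6 of 13 H2A and 6 of 15 H2B windows and in no H1, H3 or H4 window. CCAAT lay in all 5 H1, all 13 H2A and all 15 H2B windows, in 6 of 8 H3 windows and in 3 of 11 H4 windows. These are letter matches in a window, and H2A and H2B genes that share a window share their matches.

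Most clustered histone genes gave signal in these cells. The mean over 16 arrays lay above the median of the negative control values (5.46) for 52 of the 57 genes and above their 95th percentile (9.79) for 36, or for 29.6% of all genes. The 5 genes below the median were H1f5 (5.16), H2bc1 (4.70), H2bu2 (4.26), H1f6 (3.91) and H3c1 (3.68). H1f6 and H2bc1 are the older Hist1h1t and Hist1h2ba, which encode the testis forms of H1 and H2B. H3c14 and H3c15 had equal values in all 16 libraries and stand for 1 measurement. Genes of 1 type are nearly identical in coding sequence, and how far a probe set reads its neighbours was not tested.

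In odor mice, genes of H2A, H2B, H3 and H1 passed as higher in titled GFP+ than in titled GFP- libraries, and no H4 gene passed. In bulk libraries fewer cells of a type and less RNA per cell cannot be told apart. On the 14 arrays 18 of the 56 genes were higher and none lower (32.1%), against 13.2% of all genes called in either direction and 8.59% called higher and 4.59% lower. The median difference of the 56 genes was 0.47, against -0.08 for all genes. By type, 8 of 13 H2A, 5 of 16 H2B, 3 of 10 H3, 2 of 5 H1 and 0 of 12 H4 genes passed. On all 16 arrays none of the 56 passed limma at an adjusted p of 0.05, where 6.97% of all genes did, and the lowest adjusted p was 0.0525. An unadjusted limma p under 0.05 was found for 22 of the 56 genes, against 4238 of all 19505 genes (21.7%). The 4 odor libraries titled GFP+ lay wholly above the 4 titled GFP- for 11 of the 56 genes and wholly below for 1, against 8.9% and 7.6% of all genes.

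In vehicle mice, calls again came from H2A, H2B, H3 and H1 and not from H4. On the 14 arrays 22 of the 56 genes were higher in titled GFP+ and none lower (39.3%), against 11.2% of all genes called in either direction and 7.86% called higher and 3.32% lower. The median difference was 0.68, against -0.10 for all genes. The calls were 7 of 13 H2A, 6 of 16 H2B, 7 of 10 H3, 2 of 5 H1 and 0 of 12 H4 genes. On all 16 arrays none passed limma and 0% of all genes did; 5 of the 56 had an unadjusted p under 0.05 (9.8% of all genes did), and the lowest adjusted p was 0.478. Without pool 3 the groups did not overlap for 32 of the 56 genes, 30 of them higher and 2 lower in titled GFP+, against 12.6% and 14.9% of all genes. The treatments shared 16 called genes, which were 88.9% of the odor calls and 72.7% of the vehicle calls. In this fit without a block, 24 genes passed in either treatment and 32 in neither. With the pool as a block, 23 genes passed in odor and 27 in vehicle on 14 arrays. Of all genes, that fit called 1814 higher and 1108 lower in odor, and 1676 and 832 in vehicle. H2bc14 and H2ac22, called in odor alone without the block, then passed in vehicle too, so no call was left in odor alone.

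**Figure D1:**
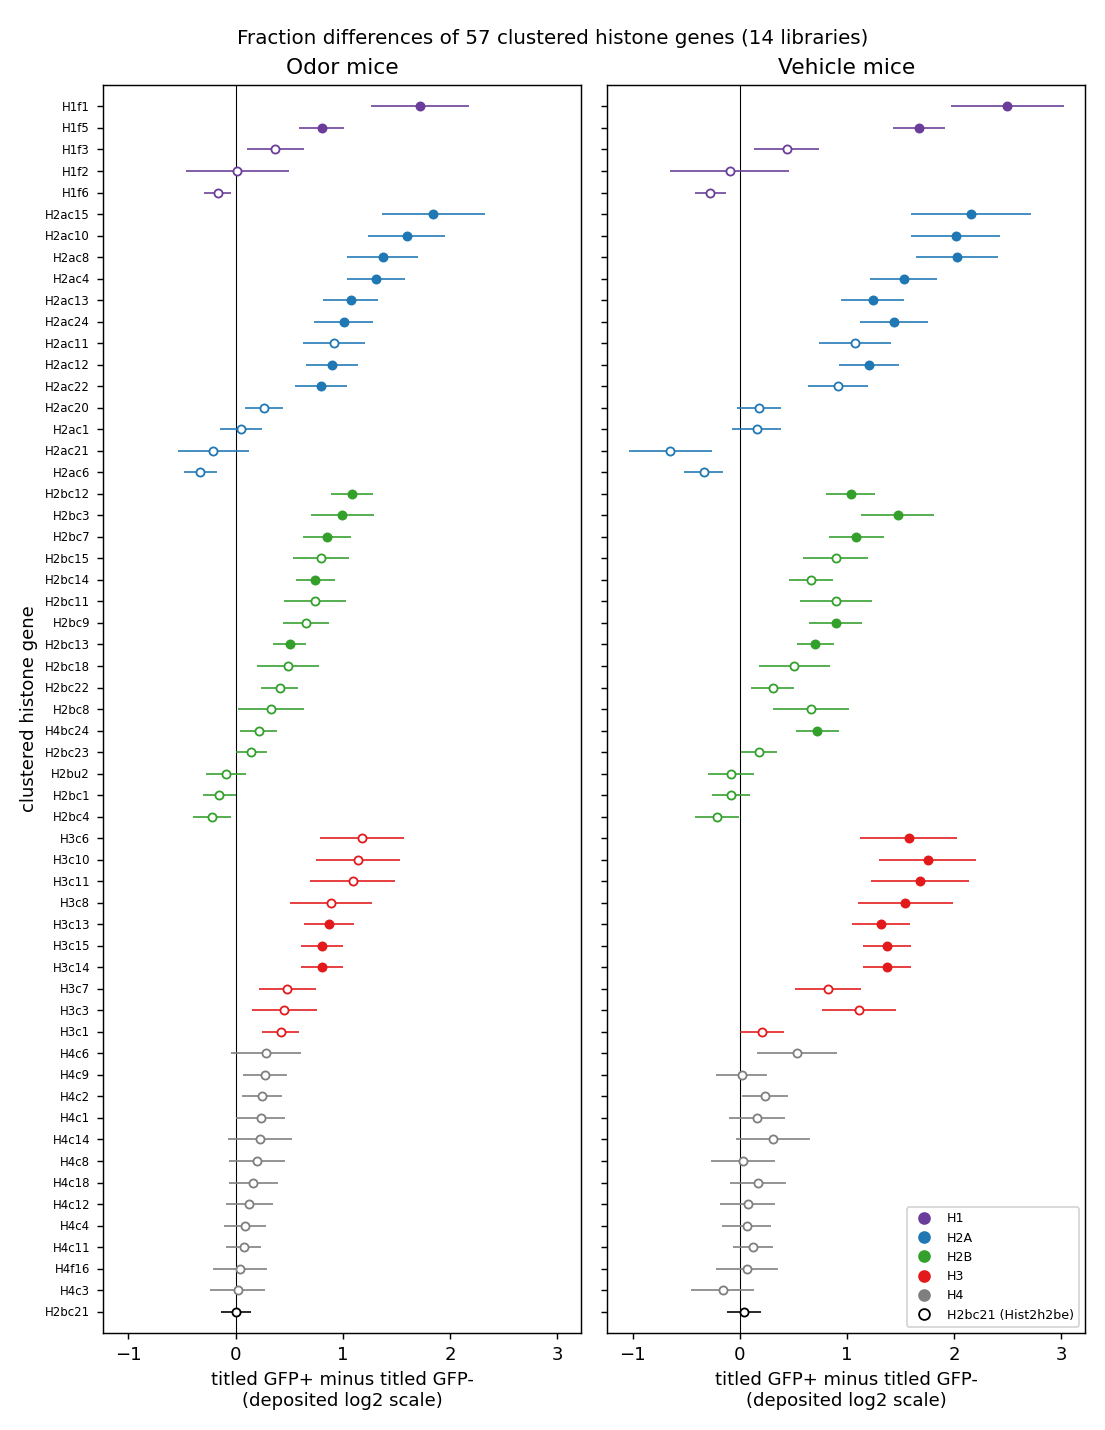
Difference titled GFP+ minus titled GFP- on the deposited log2 scale (x axis) for each of the 57 genes (y axis), in odor mice (left) and vehicle mice (right), on the 14 arrays without vehicle pool 3. Bars are limma standard errors and filled points passed at an adjusted p of 0.05. The 12 H4 genes run from 0.02 to 0.28 in odor and from -0.16 to 0.53 in vehicle, with no filled point, while H1f1 and H2ac15 lie far to the right.

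The number of calls and the size of the differences moved with the scaling of the arrays. The median over genes was 6.96 to 7.09 in the 7 libraries titled GFP+ and 6.63 to 6.74 in the 7 titled GFP-, without vehicle pool 3. Centring each array on that median moved the median difference of all genes to -0.43 in odor and -0.46 in vehicle, and that of the 56 genes to 0.12 and 0.33. Centring shifts every gene of an array alike, so it could not change the gap between these medians and does not test it. The calls became 7 higher and 4 lower in odor, and 19 higher and 4 lower in vehicle. Of all 19505 genes, 1344 were then called higher and 8734 lower in odor, and 1323 and 7074 in vehicle. H2ac6, H2bc4 and H1f6 were among the lower calls in both treatments, with H2bc1 in odor (-0.50) and H2ac21 in vehicle (-1.004), and none of these genes had been called before centring. Quantile normalization gave 17 higher and 0 lower in odor, and 22 higher and 0 lower in vehicle. For all genes it gave 1521 higher and 1561 lower in odor, and 1405 and 1253 in vehicle.

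H1f1 (Hist1h1a), a linker histone, had levels of 8.19, 8.16, 7.36 and 6.19 in odor replicates 1 to 4 titled GFP+, against 6.77, 5.44, 5.04 and 5.77 in those titled GFP-. Odor replicate 4 titled GFP+ lay below odor replicate 1 titled GFP-, so the groups overlapped. In vehicle it had 9.43, 7.83, 5.25 and 8.06 titled GFP+, against 5.72, 6.10, 7.06 and 6.03 titled GFP-. Without pool 3 the vehicle groups did not overlap. The limma difference was 1.72 ± 0.46 (SE; adjusted p = 0.0190) in odor and 2.49 ± 0.53 (adjusted p = 0.00435) in vehicle on 14 arrays, and 1.72 ± 0.70 (adjusted p = 0.158) and 1.42 ± 0.70 (adjusted p = 0.528) on 16 arrays. The odor call was lost without odor replicate 1 or 2 titled GFP+ and without odor replicate 2 or 3 titled GFP-, and with quantile normalization, with an adjusted p of up to 0.0721.

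H1f5 (Hist1h1b), the other H1 gene that passed, was dim. Its odor libraries titled GFP+ held 6.02, 5.35, 5.31 and 5.10, against 4.58, 4.81, 4.59 and 4.58 titled GFP-. The odor libraries titled GFP- all lay below the negative control median (5.46), and so did odor replicates 2, 3 and 4 titled GFP+. The odor groups did not overlap, and the difference was 0.80 ± 0.21 (SE; limma adjusted p = 0.0174), lost without odor replicate 1 titled GFP+ and after centring on array medians. In vehicle, on 14 arrays, it was 1.67 ± 0.24 (adjusted p = 0.000174). H1f2 (Hist1h1c), a linker histone gene whose RNA is known to be polyadenylated in non-dividing cells, did not pass: the limma difference was 0.02 ± 0.48 in odor (adjusted p = 0.989) and -0.10 ± 0.56 in vehicle (adjusted p = 0.948). H1f3 (0.37 and 0.44) and H1f6 (-0.17 and -0.28) did not pass in odor or vehicle.

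H2A held the largest differences among the core histones in odor. H2ac10 (Hist1h2af) had 13.03, 12.35, 12.20 and 11.42 in odor replicates 1 to 4 titled GFP+, against 11.35, 10.64, 10.05 and 10.56 titled GFP-, and in vehicle 13.46, 11.98, 9.73 and 12.64 titled GFP+, against 10.35, 10.60, 12.39 and 11.09 titled GFP-. The odor groups did not overlap, nor did the vehicle groups once pool 3 was left out. The difference was 1.60 ± 0.36 (SE; limma adjusted p = 0.00635) in odor and 2.01 ± 0.42 (adjusted p = 0.00367) in vehicle on 14 arrays, and 1.60 ± 0.64 (adjusted p = 0.155) and 0.85 ± 0.64 (adjusted p = 0.702) on 16 arrays.

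H2ac15 (Hist1h2ak) differed by 1.85 ± 0.48 (SE) in odor and 2.16 ± 0.56 in vehicle (limma adjusted p = 0.0174 and 0.0181, 14 arrays). Its odor groups overlapped, since odor replicate 1 titled GFP- reached 12.23 and replicate 4 titled GFP+ was at 11.69. Its odor call was lost on leaving out either of replicates 1 and 2 titled GFP+ or any of replicates 2, 3 and 4 titled GFP-, and its vehicle call on leaving out replicate 1 of either fraction or replicate 2 titled GFP-. H2ac8, H2ac4 and H2ac13 differed by 1.37, 1.31 and 1.07 in odor and by 2.02, 1.53 and 1.24 in vehicle, with no overlap between the fractions in either treatment on 14 arrays. All these calls held under the alternatives run on 14 arrays, except that of H2ac13 in vehicle, lost without vehicle replicate 1 titled GFP+. Lack of overlap was part of the rule that named genes for their large differences, so for genes named that way it adds no support. H2ac22 passed in odor alone (0.80 ± 0.25, SE, limma adjusted p = 0.0441; vehicle 0.92 ± 0.28, adjusted p = 0.0507, or 0.0287 with the pool as a block), and that call was lost under 11 of the alternatives. H2ac20 (Hist2h2ac), with levels of 14.45 to 15.40, and H2ac1, a gene of cluster 1, did not pass, at 0.27 and 0.05 in odor and 0.18 and 0.16 in vehicle.

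H2bc12 (Hist1h2bk), whose promoter is printed above, had the smallest p of all 56 genes in odor. It had levels of 11.37, 10.96, 10.95 and 10.68 in odor replicates 1 to 4 titled GFP+, against 10.21, 9.91, 9.58 and 9.92 titled GFP-. In vehicle it had 11.76, 10.92, 9.74 and 11.22 titled GFP+, against 10.19, 10.37, 10.79 and 10.23 titled GFP-. The lowest odor library titled GFP+ lay above the highest titled GFP-, and the same held in vehicle without pool 3. The difference was 1.08 ± 0.20 (SE; limma adjusted p = 0.00111) in odor and 1.03 ± 0.23 (adjusted p = 0.00578) in vehicle on 14 arrays, and 1.08 ± 0.32 (adjusted p = 0.0525) and 0.51 ± 0.32 (adjusted p = 0.628) on 16 arrays.

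H2bc7 and H2bc14, other H2B genes of cluster 1, differed by 0.85 and 0.75 in odor and by 1.09 and 0.67 in vehicle. H2bc7 passed limma in both (adjusted p = 0.0172 and 0.00982) and H2bc14 in odor alone (adjusted p = 0.00984, against 0.0516 in vehicle, or 0.0344 there with the pool as a block). The odor calls of both were lost after centring; that of H2bc7 was also lost without odor replicate 1 or 2 titled GFP+ or replicate 3 titled GFP-, and its vehicle call without vehicle replicate 1 titled GFP+. H2bc4 (Hist1h2bc), a gene whose RNA is known to be polyadenylated in non-dividing cells, did not pass, with differences of -0.22 ± 0.18 in odor and -0.22 ± 0.21 in vehicle (SE; limma adjusted p = 0.515 and 0.595). Centred on array medians it was called lower in both, at -0.57 each. The median of all genes was then -0.43 in odor and -0.46 in vehicle, and 8734 and 7074 of all genes were called lower.

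H3 genes gave calls in both treatments. H3c15 (Hist2h3c2), whose values H3c14 shares, had 14.28, 13.98, 13.93 and 13.50 in odor replicates 1 to 4 titled GFP+, against 13.57, 12.92, 12.95 and 13.03 titled GFP-. In vehicle it had 14.68, 14.06, 13.15 and 14.26 titled GFP+, against 12.92, 12.88, 13.89 and 13.07 titled GFP-. Odor replicate 4 titled GFP+ lay just under replicate 1 titled GFP-, and the vehicle groups without pool 3 did not overlap. The difference was 0.81 ± 0.20 (SE; limma adjusted p = 0.0110) in odor and 1.37 ± 0.23 (adjusted p = 0.000561) in vehicle on 14 arrays, and 0.81 ± 0.30 (adjusted p = 0.124) and 0.85 ± 0.30 (adjusted p = 0.478) on 16 arrays. The odor call was lost after centring on array medians.

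In odor the 3 H3 calls were the 3 cluster 2 genes H3c13, H3c14 and H3c15, and none of the 7 cluster 1 H3 genes passed, although their median difference was 0.89, against 0.81 for cluster 2. H3c6, H3c10 and H3c11 differed by 1.18, 1.15 and 1.09 there (limma adjusted p = 0.0618, 0.0719 and 0.0906). With the pool as a block, H3c6 and H3c10 passed in odor as well (adjusted p = 0.0352 and 0.0451), which ends that split between the clusters. In vehicle 4 of the 7 cluster 1 H3 genes passed with all 3 of cluster 2. H3c10 then differed by 1.75, H3c11 by 1.68 and H3c6 by 1.58 (limma adjusted p = 0.0177, 0.0238 and 0.0334). These 3 vehicle calls were lost without vehicle replicate 1 of either fraction or replicate 2 titled GFP-, and that of H3c6 also without replicate 4 titled GFP+.

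None of the 12 H4 genes passed in either treatment. Their differences on 14 arrays were positive for all 12 in odor and for 11 in vehicle, as for 7319 and 7085 of all 19505 genes. H4c4 (Hist1h4d) had 15.14, 15.08, 15.08 and 14.67 in odor replicates 1 to 4 titled GFP+, against 15.38, 14.92, 14.72 and 14.58 titled GFP-. In vehicle it had 15.20, 14.83, 14.63 and 14.92 titled GFP+, against 14.67, 14.77, 15.26 and 15.33 titled GFP-. The fractions overlapped in both treatments. The difference was 0.09 (95% interval -0.33 to 0.51; limma adjusted p = 0.844) in odor and 0.06 (-0.43 to 0.55; adjusted p = 0.912) in vehicle. H4c2 and H4c9, the H4 genes with the smallest p in odor, differed by 0.25 and 0.28 (limma adjusted p = 0.473 and 0.463). The median over the 12 H4 genes was 0.18 in odor and 0.10 in vehicle, and -0.17 and -0.26 after centring on array medians, which turns its sign. After centring, the median of all genes was -0.43 in odor and -0.46 in vehicle. No test set H4 against the other types.

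**Figure D2:**
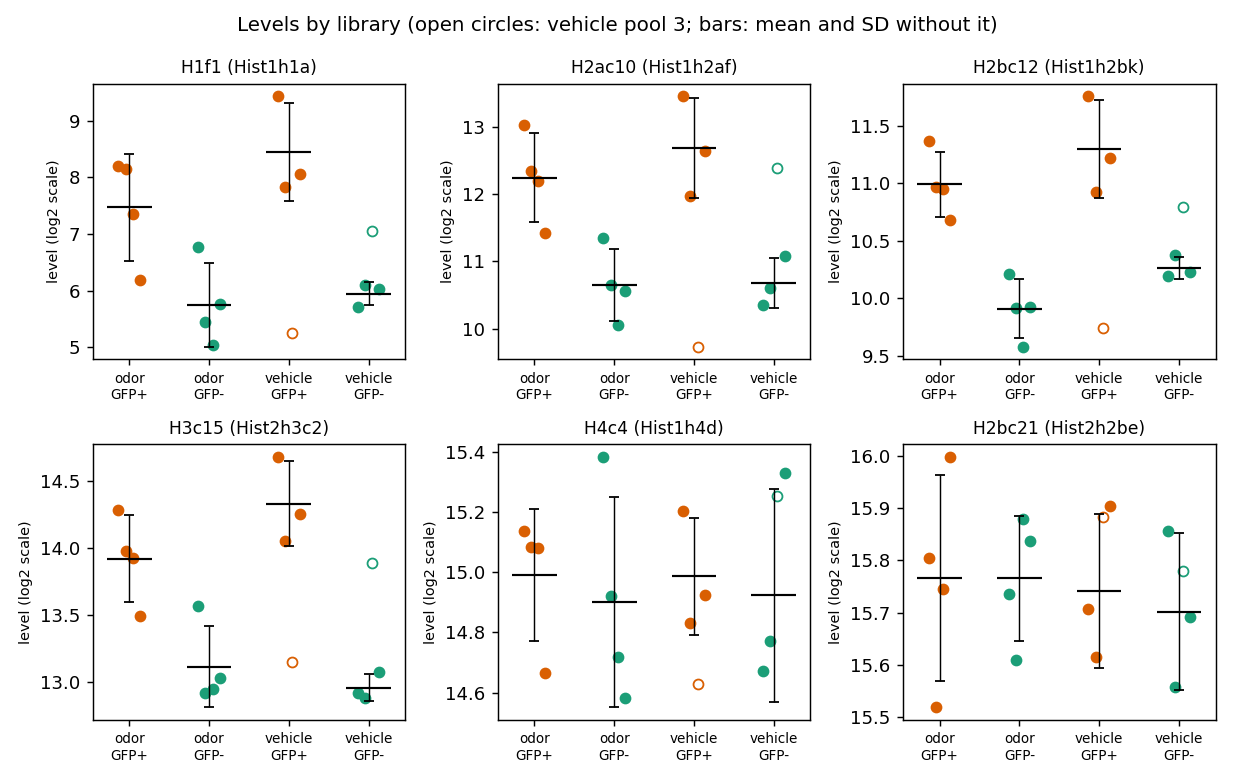
Level on the deposited log2 scale (y axes, which do not start at 0) of 6 genes in each of the 16 libraries, by treatment and titled fraction (x axes). Lines and bars are means and SDs without vehicle pool 3, whose libraries are open circles; they lie with the opposite fraction for H1f1, H2ac10, H2bc12 and H3c15, and H2bc21 stays between 15.52 and 15.998 in every library.

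H2bc21 (Hist2h2be), the variant lowered by activity in mouse olfactory neurons, varied little. It had 15.80, 15.52, 15.75 and 15.998 in odor replicates 1 to 4 titled GFP+, against 15.74, 15.61, 15.88 and 15.84 titled GFP-. In vehicle it had 15.71, 15.62, 15.88 and 15.90 titled GFP+, against 15.86, 15.56, 15.78 and 15.69 titled GFP-. All 4 groups overlapped. The fraction difference was 0.00 (95% interval -0.30 to 0.30; limma adjusted p = 0.997) in odor and 0.04 (-0.31 to 0.38; adjusted p = 0.923) in vehicle on 14 arrays, and odor minus vehicle was 0.03 (-0.30 to 0.35) in titled GFP+ and 0.06 (-0.26 to 0.39) in titled GFP-. Centred on array medians the fraction differences were -0.35 in odor and -0.31 in vehicle, and neither passed. The median of all genes was then -0.43 and -0.46. Over the 16 arrays the genes with the highest Pearson correlation to it were Sec61a2 (0.8288), Phc1 (0.819), Olfr97 (0.797), Stx1a (0.774) and Ccdc84 (0.770), given as a description of libraries that share pools and fractions.

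Pool by pool, the fractions were compared within the same mice. Of the 56 genes, 40, 49, 50 and 42 were higher in the library titled GFP+ in odor pools 1 to 4, and 51, 42, 4 and 37 in vehicle pools 1 to 4. The median difference was 0.56, 0.52, 0.73 and 0.26 in the odor pools and 1.19, 0.43, -0.73 and 0.45 in the vehicle pools. Between 41.9% and 45.1% of all genes were higher in titled GFP+ in the 7 pools other than vehicle pool 3, and 52.6% in that pool. In those 7 pools 28 genes were higher in titled GFP+ every time: 2 H1, 9 H2A, 9 H2B, 8 H3 and no H4 genes. These were 50% of the 56 genes, against 10.7% of all genes; 2 of the 56 (3.57%) were lower every time, against 10.5% of all genes. All 28 were lower in titled GFP+ of vehicle pool 3, the pool whose S100a5 also ran opposite to the others. How many of all genes with 1 direction in the 7 pools turned there was not counted, so this is not particular to histone genes.

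**Figure D3:**
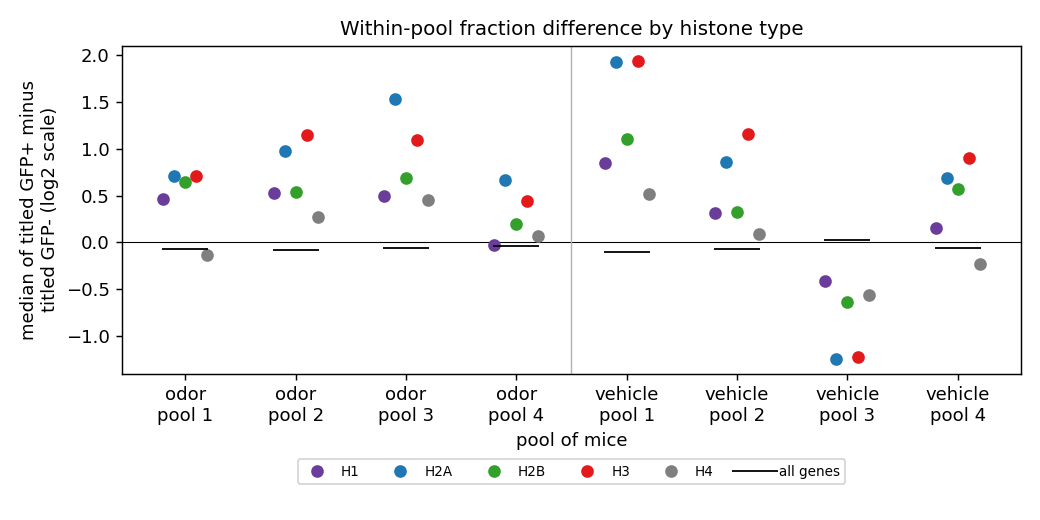
Median over the genes of each histone type of the difference titled GFP+ minus titled GFP- within a pool (y axis, deposited log2 scale), for the 4 odor and 4 vehicle pools (x axis); black dashes are the median of all genes. H2A and H3 lie highest in the 7 pools other than vehicle pool 3, H4 runs there from -0.23 to 0.52, and every type lies below 0 in vehicle pool 3.

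Many H2A and H2B genes lie head to head and share the DNA between them. In 8 such pairs the promoter windows, here 250 bases before to 50 after the start, overlapped by 220 to 279 bases. In odor both partners passed in 2 pairs, the H2A gene alone in 4, the H2B gene alone in 0 and neither in 2, and the H2A gene had the larger difference in 7 of 8. In vehicle these counts were 3, 2, 0 and 3, and the H2A gene had the larger difference in 8 of 8. With the pool as a block the counts, in the same order, were 3, 4, 0 and 1 in odor and 4, 3, 0 and 1 in vehicle. H2ac8 differed by 1.37 ± 0.33 (SE) in odor and its partner H2bc8 by 0.33 ± 0.31 (limma adjusted p = 0.0103 and 0.580). H2ac12 and H2bc12 both passed in odor, at 0.90 ± 0.24 and 1.08 ± 0.20. Mean levels over 16 arrays were lower in the H2B partner of every pair but H2ac15 and H2bc15 (11.87 and 12.66). H4bc24 was at 6.08 against 14.10 for H2ac24, and H2bc1 (4.70) lay below the negative control median. Signals of different probe sets can respond with different slopes, and no test set partners against each other.

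**Figure D4:**
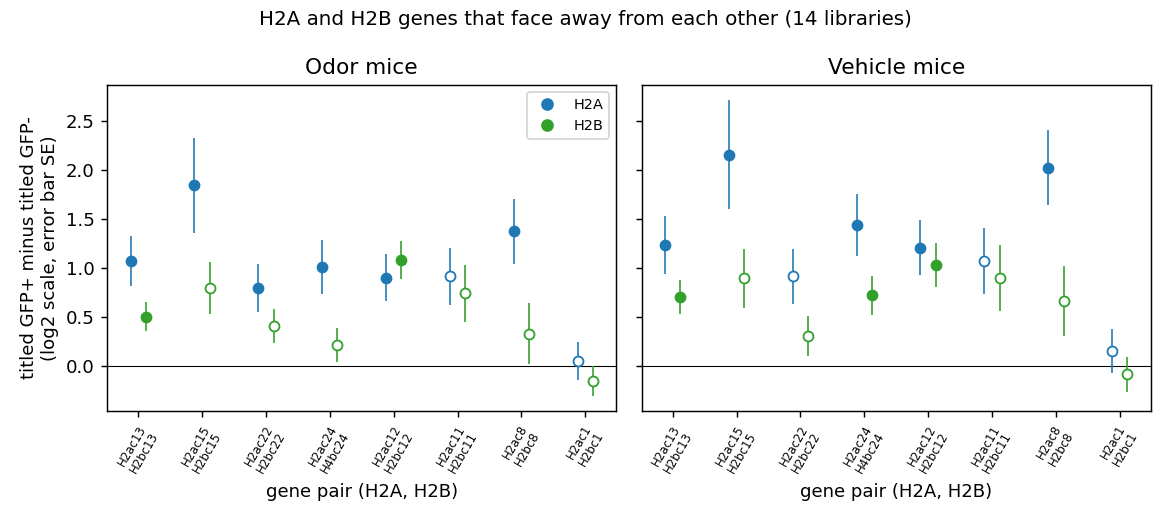
Difference titled GFP+ minus titled GFP- (y axis, deposited log2 scale, bars are limma standard errors) of the H2A and the H2B gene in 8 head-to-head pairs (x axis) in odor mice (left) and vehicle mice (right), on 14 arrays; filled points passed. The H2A point is higher in every pair but H2ac12 and H2bc12 in odor.

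Promoter motifs were also counted by call, as a description. The octamer lay in 6 of 24 windows of genes called in either treatment and in 6 of 28 windows of genes called in neither. CCAAT lay in 22 of 24 and 20 of 28, and TATAAA in 10 of 24 and 15 of 28. H4 genes made up 11 of the 28 windows without a call.

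Odor against vehicle gave no call for any clustered histone gene. On 14 arrays the median difference of the 56 genes was -0.30 in titled GFP+ and -0.07 in titled GFP-. None passed limma in either, where 0.0359% and 0.0256% of all genes did, and the lowest adjusted p was 0.383 and 0.573. An unadjusted limma p under 0.05 was found for 4 and 1 of the 56 genes, against 7.78% and 7.55% of all genes. H1f5 had the smallest p in titled GFP+, with a difference of -0.76 ± 0.23 (SE; limma adjusted p = 0.383). H1f2 differed by -1.19 ± 0.52 in titled GFP+ (adjusted p = 0.607) and -1.30 ± 0.52 in titled GFP- (adjusted p = 0.573). H1f2 levels were 10.46, 8.69, 9.15 and 8.48 in odor replicates 1 to 4 titled GFP+, against 10.40, 10.10, 8.58 and 10.65 in vehicle, so the groups overlapped. On 16 arrays the medians were 0.04 and -0.17, and none of the 56 passed limma in either fraction (0% and 0.0103% of all genes did). None had an unadjusted p under 0.05, which 4.66% and 6.36% of all genes had.

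The difference of fraction differences, odor minus vehicle, tests whether odor changed the contrast between fractions. None of the 56 genes passed limma on 14 arrays (0.0103% of all genes did), and 1 had an unadjusted p under 0.05 (2.68% of all genes did), H1f5 with -0.87 ± 0.32 (SE). The median was -0.11, and the fraction difference was larger in vehicle for 39 of the 56 genes, against 48.1% of all genes. On 16 arrays none passed (0.00513% of all genes did), none had an unadjusted p under 0.05 (2.98% of all genes did), and the median was 0.23. There the order turned, and the fraction difference was larger in odor for 43 of the 56 genes, against 48.6% of all genes. For H1f1 the difference was -0.78 (95% interval -2.26 to 0.71) on 14 arrays.

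Genes around the histone pathway were read beside the members. Of 18 genes that process histone RNA or supply histones to DNA, 1 was higher in titled GFP+ in each treatment on 14 arrays and 0 were lower. That gene was Asf1b, a chaperone that hands H3 and H4 to newly copied DNA, with differences of 1.79 in odor and 2.23 in vehicle (limma adjusted p = 0.000237 and 0.000137). Slbp, whose protein binds the histone mRNA stem-loop, differed by -0.05 in odor and -0.06 in vehicle, and Npat, an activator of clustered histone genes, by -0.07 and 0.09; neither passed. Of 11 genes listed here as histone variants, 2 were higher and 0 lower in each treatment. These were Cenpa, the H3 of centromeres (1.40 and 1.79), and H2ax, which is phosphorylated at DNA breaks (1.03 and 1.39). H2az1, H3f3a and H3f3b, which encode H2A.Z and H3.3, did not pass (0.30, 0.31 and 0.12 in odor).

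Cell cycle genes were read in the same libraries. Of 28 S phase genes, 6 were higher and 0 lower in odor and 10 and 0 in vehicle on 14 arrays. Rrm2, a subunit of the enzyme that makes deoxyribonucleotides, differed by 1.96 and 3.25. Of 19 genes of G2 and mitosis, 17 were higher and 0 lower in each treatment on 14 arrays. On all 16 arrays 0 S phase genes and 7 genes of G2 and mitosis passed in odor, where 6.97% of all genes did. In vehicle 0 of either list passed there, as did 0% of all genes. Mki67, a protein of dividing cells, had 10.50, 10.24, 9.77 and 8.25 in odor replicates 1 to 4 titled GFP+, against 6.29, 4.60, 4.39 and 4.90 titled GFP-. In vehicle Mki67 had 11.84, 10.25, 5.70 and 10.50 titled GFP+, against 5.71, 4.46, 9.63 and 5.87 titled GFP-. Odor replicate 4 was the lowest odor library titled GFP+ for Mki67, H1f1, H2ac10, H2bc12 and H3c15 alike. Vehicle replicate 1 titled GFP+ was the highest vehicle library for all of them. The same held for Ngp of neutrophils (15.18 and 17.96) and the erythroid marker Slc4a1 (9.90 and 12.84), so this order was not particular to Mki67. It did not hold for Gng8 of immature neurons, and what sets this order was not tested. Between the fractions, and without pool 3, Mki67 did not overlap.

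Markers of several other cell types moved with the fractions as well, and their part in the histone differences was not tested. On all 16 arrays 13 of 14 neutrophil and myeloid and 7 of 12 sustentacular, microvillar and gland markers passed in odor. Globose basal and immature neuron markers gave 5 of 10. In vehicle no marker of any list passed on 16 arrays, and no other gene did. Marker calls from here through the next paragraph are from the 14 arrays. All 14 neutrophil and myeloid markers were higher in titled GFP+ in both treatments, and their mean level was 10.27 to 13.01 in odor libraries titled GFP+, against 4.86 to 6.23 titled GFP-. Ngp, a neutrophil granule protein, differed by 9.42 in odor and 8.68 in vehicle. Globose basal and immature neuron markers were higher for 6 of 10 in each treatment, with a mean of 9.62 to 9.84 against 7.72 to 7.999 in odor. Gng8, a G protein subunit of immature olfactory neurons, differed by 4.64 and 4.71. Sustentacular, microvillar and gland markers were higher for 10 of 12 in odor and 9 of 12 in vehicle, with a mean of 9.18 to 10.63 against 6.95 to 7.82 in odor.

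Lymphoid markers were higher for 6 of 10 in odor and 5 of 10 in vehicle, and erythroid markers for 1 of 4 and 2 of 4. The lymphoid mean was 5.53 to 6.94 in odor libraries titled GFP+, against 4.63 to 4.82 titled GFP-, and 2 of the 10 stayed below the negative control median in all libraries. The erythroid mean was 6.58 to 7.70 against 6.05 to 6.16. No horizontal basal cell marker of 5 passed, and all 5 lay below the negative control median throughout. Of 9 markers of glia, vessels and fibroblasts, 1 was higher in each treatment, with 4 below that median. Mature olfactory neuron markers were lower in titled GFP+ for 3 of 13 in odor and 2 of 13 in vehicle, with a mean of 15.82 to 15.93 against 16.09 to 16.19 in odor. Genes of olfactory activity were lower for 6 of 8 in each treatment, with a mean of 12.60 to 13.05 against 13.64 to 13.84 in odor.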

How the data were processed

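Per the submitters' processing notes, the authors made the deposited log2 values with Affymetrix Expression Console; the sources used here do not give its version, the summarization, the genome build or how the cRNA was primed. Of 28846 probe sets, 6640 were controls, 19572 had 1 gene symbol, 0 had several and 2634 had none. The probe set with the highest mean over 16 arrays stood for a gene. No symbol of the platform annotation matched the older histone names directly, so members were found by Entrez ID through RefSeq (GRCm38.p6); 13 such genes, 3 of them pseudogenes, were not analysed here. Of 176 genes in 13 pathway and marker lists, 161 were measured.

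limma 3.58.1 in R 4.3.3 (lmFit, eBayes, two-sided) fitted 4 group means with no block to the deposited values over all 19505 genes. Nothing says that pools differ beyond being separate groups of mice, and p-values measure the spread between pools. The pairing of fractions comes from the design, as both fractions of a pool share their mice. Deviations from group means correlated at 0.127 to 0.253 within the 4 odor pools and at -0.0221 to 0.287 within the 3 vehicle pools left on 14 arrays. The alternatives were quantile normalization, centring, a filter on dim genes, the mean of a gene's probe sets, a trended robust prior, a random block for pool, a fit of the compared groups alone and leaving out each library.

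Named genes followed a rule: H2bc21, S100a5, genes with polyadenylated RNA, the 6 highest means, the 8 largest differences either way among calls without overlap, 2 genes per histone type and 3 per list by p, and 5 genes most like H2bc21. Asides on other members, and Slbp, Npat, H3f3a and H3f3b, were chosen after values were seen. The members and the lists were chosen with earlier results of these data known, as was the set of 14 arrays.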

Additional observations from a re-analysis of the deposited data

Results flagged for a closer look

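Among 96 group values of the named genes, 8 held a library far from the other 3 by the criterion of Dixon; chance marks about 1 in 20 such groups. Of these, 5 fell on odor replicate 1 titled GFP-, which was the highest of its group in H2ac8 (10.58), H2ac15 (12.23), H3c10 (11.98), H3c11 (12.04) and H3c6 (12.49). The same library also held the highest Mki67 level of its group, at 6.29, against 4.60, 4.39 and 4.90 in the other 3; the part of dividing cells was not tested. H4c4 stood apart in odor replicate 4 titled GFP+, the lowest of its group at 14.67, and H1f5 in odor replicate 2 titled GFP-, the highest at 4.81. S100a5 stood apart in vehicle replicate 3 titled GFP-, at 14.99, the library of the pool that ran opposite to the others.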

How the results depend on the processing

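Calls of clustered histone genes depended on vehicle pool 3. On 16 arrays no clustered histone gene passed in odor. Centring on array medians gave 3 (1 higher, 2 lower), where 1019 of all genes were called higher and 4722 lower. Leaving out dim genes gave 1, and fitting the odor groups alone gave 16. Leaving out 1 library gave 0 to 14 calls in odor and 0 to 12 in vehicle, the highest both times without vehicle replicate 3 titled GFP+. On 14 arrays the 18 odor calls became 11 after centring (7 higher, 4 lower) and 8 to 25 on leaving out 1 library: 8 without replicate 1 titled GFP+, 9 without replicate 2 titled GFP+ or replicate 3 titled GFP-, and 11 without replicate 2 titled GFP-. The 22 vehicle calls became 11 to 26, with 11 without vehicle replicate 1 titled GFP+. The cause was not tested, and each such fit has fewer arrays. With the pool as a replicate block, which the shared mice justify, 23 genes passed in odor and 27 in vehicle on 14 arrays, and 0 in each on 16 arrays. Of all 19505 genes, that fit called 1814 higher and 1108 lower in odor and 1676 and 832 in vehicle on 14 arrays. On 16 arrays it called 915 and 485 in odor and 0 and 0 in vehicle. The block changed no count of calls over all 56 genes by over 1.5 times. Of 218 recomputed counts of calls among the 56 genes, 205 stayed within 1.5 times of the reported count and 13 did not. Among single genes 951 values kept direction and side of the threshold, 45 lost a call and 5, all of S100a5, gained one. No called value changed sign. Signals near the negative controls limit what the dimmest probe sets can show.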
